A study of Mus musculus with 6 samples.

Results

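The genes described here are 9 genes of iron and heme handling, taken by symbol from the deposited table of mouse bone marrow-derived macrophages (BMDM). All 9 were among its 14005 listed gene identifiers and all passed the filter on low values, as did 13977 identifiers in all. BMDM are primary macrophages grown from bone marrow, and polyA-selected RNA was sequenced from 2 groups of 3 libraries. Wild-type cells of strain C57BL/6J served as controls. The second group carries the label Txn1 KO on that background, and its genotype joins the allele Txn1tm1.1Ees/J with B6.129P2-Lyz2tm1(cre)lfo/J, an insertion of Cre recombinase into Lyz2, a gene of myeloid cells. Both groups were labelled as pooled male and female, and no age or treatment was labelled. The series asked what losing thioredoxin-1, the cytosolic disulfide reductase that Txn1 encodes, does to NLRP1 inflammasome genes.

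The libraries held 22508616 to 38726953 reads in listed genes. Txn1 itself had 12155 to 13176 normalized counts in wild-type libraries and 11963 to 12695 in those labelled Txn1 KO (log2 -0.03; limma adjusted p = 0.686), so the label was not borne out at this level, although its value sums the whole gene, and which part was deleted is not labelled. Lyz2, which the Cre insertion interrupts, fell from 364408 ± 3550 to 3118 ± 1281 normalized counts (SD, n = 3 each). The Txn1 allele, the Cre insertion and anything linked to them differ together between the groups and cannot be told apart. All 8 macrophage markers examined were listed, and 2 rose and 4 fell, where 11.5% of all tested genes rose and 9.97% fell. Itgam (log2 0.48) and Mertk (0.64) rose, and Cd68 (-0.12), Cd14 (-0.47), Fcgr1 (-0.71) and Lyz2 fell. Csf1r (0.05) did not pass. Adgre1, the macrophage antigen F4/80, was at 17727 normalized counts in controls against 16942 and did not pass either. None of 10 erythroid markers, such as hemoglobin chains, was listed, nor any of 6 lymphocyte markers. Of 9 neutrophil markers 5 were listed and 2 of these fell (40.0%, against 9.97% of all tested genes). Wild-type replicate 1 and the library labelled Txn1 KO 3 stood apart through liver transcripts: Alb was at 642.9 and 580.0 normalized counts there and at most 0.838 in the other 4. Changes of the 9 genes are therefore also given without these 2 libraries. The summed level of 7 stromal markers was lower in the libraries labelled Txn1 KO (1171 to 2031 normalized counts) than in wild type (2378 to 2684). Of the 7, 5 fell (71.4%, against 9.97% of all tested genes), and their part in the results was not tested. In bulk samples, fewer cells of a type and less RNA per cell cannot be told apart. No label states that replicates came from different animals or cultures. The p-values then rest only on the spread among these samples, which may be technical.

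Macrophages recover iron from engulfed red cells. Hemoglobin is digested in the phagolysosome, heme passes to the cytosol through HRG1 (Slc48a1), heme oxygenase 1 (Hmox1) opens the ring to free iron and biliverdin, and biliverdin reductases turn biliverdin into bilirubin. The iron is stored in ferritin (Fth1 and Ftl1) or leaves the cell through ferroportin (Slc40a1), while iron bound to transferrin enters through the transferrin receptor (Tfrc). Transcription of several of these genes responds to NRF2 and to BACH1, a repressor that heme inactivates. Their mRNAs are also read by iron regulatory proteins, which bind a hairpin called the iron-responsive element when iron is scarce. At the 5′ end of an mRNA the bound hairpin blocks translation, and in the 3′ untranslated region (UTR) it protects the mRNA from decay.

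The hairpins are shown because a search for them divided the 9 genes into those with and without a match to this common control element. The search took a C, 5 bases, the loop CAGTGN and 5 bases that pair with the 5 before the loop, on the transcript strand of GENCODE M21 coding transcripts. It found the element in 4 of the 9 genes, against 0.138% of 22527 coding genes with it in a 5′ UTR and 0.639% with it in a 3′ UTR. Each sequence runs 5′ to 3′ over 27 bases, with the 6 bases of the loop in capitals, and positions are on GRCm38.
Slc40a1, 5′ UTR, chr1:45925466-45925492, minus strand: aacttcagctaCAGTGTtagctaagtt
Fth1, 5′ UTR, chr19:9982733-9982759, plus strand: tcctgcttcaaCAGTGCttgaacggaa
Ftl1, 5′ UTR, chr7:45459780-45459806, minus strand: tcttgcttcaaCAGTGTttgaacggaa
Tfrc, first of 4 in the 3′ UTR, chr16:32631220-32631246, plus strand: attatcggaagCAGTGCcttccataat
Tfrc, last of 4 in the 3′ UTR, chr16:32631711-32631737, plus strand: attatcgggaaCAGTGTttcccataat
The search asks for every upper pair and for this loop, so a gene with or without a match may carry variant hairpins that it missed. The 4 of Tfrc are the matches found. A match is a description of the sequence and not a measurement of binding, and these data give RNA levels and not translation.

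Slc48a1, Hmox1, Blvrb, Slc40a1, Slc11a1 and Slc11a2 rose in the libraries labelled Txn1 KO, and both ferritin genes (Fth1 and Ftl1) and Tfrc did not pass limma. Of the 9 genes, 6 rose (limma on log2(normalized count + 1), Benjamini-Hochberg adjusted p under 0.05 over all tested genes), where 11.5% of all tested genes rose. None of the 9 fell by limma, also at an unadjusted p under 0.05, nor by DESeq2 on recovered reads, whereas edgeR on the same reads called 1 lower (Fth1, described with the ferritins). Upper-quartile scaling turned the balance of calls over all tested genes, from 1607 higher and 1394 lower to 1375 and 1747, and left the counts of the 9 at 6 and 0. Of all tested genes 9.97% fell by limma, 9.14% by DESeq2 and 9.94% by edgeR. The same 6 genes rose by edgeR and DESeq2, where 11.3% and 10.6% of all genes rose. They also rose without the 2 libraries with liver transcripts, where 8.79% of all tested genes rose and 6.89% fell. The median log2 change of the 9 was 0.45, against -0.00 over all tested genes. The groups did not overlap for the 6 that rose, and 18.5% of all tested genes were higher without overlap. The 9 genes were chosen with earlier results of these data known, so these counts describe them and support nothing further.

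**Figure D1:**
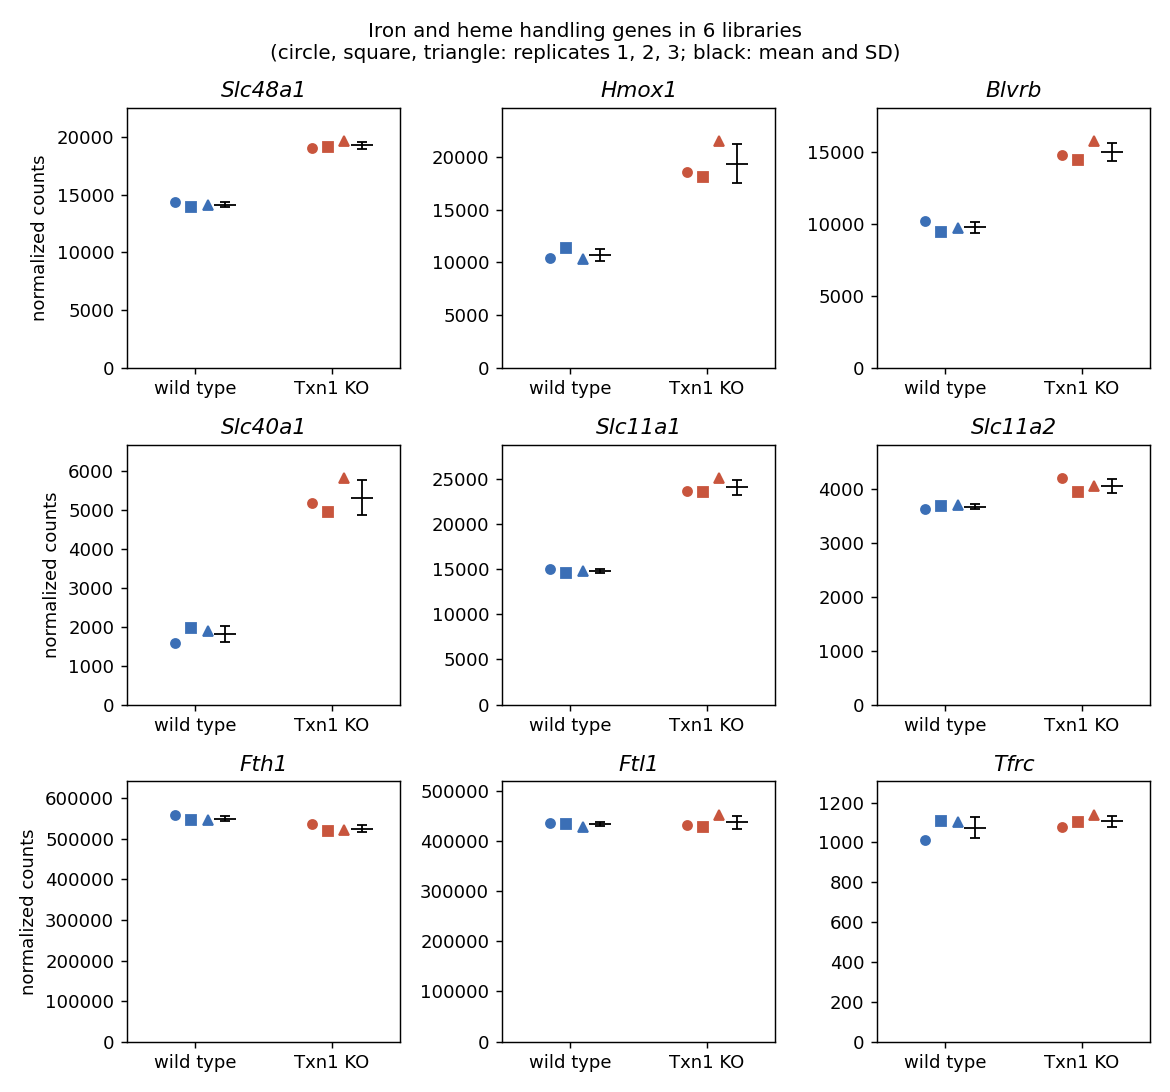
Normalized counts (vertical axes, each from 0) of the 9 genes in wild-type libraries (blue) and libraries labelled Txn1 KO (red), 1 symbol a library, with the mean and SD of each group in black. Slc48a1, Hmox1, Blvrb, Slc40a1, Slc11a1 and Slc11a2 are higher in all 3 libraries labelled Txn1 KO, and the triangle of that group, replicate 3, is the highest for 7 of the 9 genes.

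Slc48a1 (ENSMUSG00000081534, chromosome 15, 97778520 to 97792692, plus strand) encodes the transporter that moves heme out of the phagolysosome. Wild-type replicates 1 to 3 had 14357, 13973 and 14072 normalized counts, and replicates 1 to 3 labelled Txn1 KO had 19038, 19168 and 19616. Both groups were tight, with a coefficient of variation of 1.41% (wild type) and 1.57%, and they did not overlap. The rise was 1.36-fold (log2 0.45 ± 0.031, SE; limma adjusted p = 1.13e-08), and the log2 change was 0.45 without the 2 libraries with liver transcripts. A stretch of 29 exonic bases is shared with Hdac7 on the other strand, and whether the authors counted by strand is unknown here.

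Hmox1 (ENSMUSG00000005413, chromosome 8, 75093621 to 75100589, plus strand) encodes the inducible heme oxygenase. Normalized counts were 10443, 11343 and 10318 in the wild-type libraries, against 18551, 18108 and 21490 in those labelled Txn1 KO. The lowest library of the second group was well above the highest of the first, and replicate 3, one of the 2 with liver transcripts, was the highest. The rise was 1.81-fold (log2 0.85 ± 0.053, SE; limma adjusted p = 2.65e-09) and the log2 change was 0.76 without both libraries with liver transcripts. Its relative Hmox2, the constitutive heme oxygenase, moved the other way, falling from 3589 ± 47.9 normalized counts to 3017 ± 164 (SD, n = 3 each; log2 -0.25 ± 0.043, SE; limma adjusted p = 0.000331).

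Blvrb (ENSMUSG00000040466, chromosome 7, 27447978 to 27466144, plus strand) encodes biliverdin reductase B, which also acts as a flavin reductase. The wild-type libraries had 10195, 9450 and 9719 normalized counts and those labelled Txn1 KO 14841, 14468 and 15753, again with no overlap. The rise was 1.53-fold (log2 0.62 ± 0.038, SE; limma adjusted p = 2.86e-09), with a log2 change of 0.61 without the libraries with liver transcripts. Blvra, the reductase of adult bilirubin formation, rose less, from 3449 ± 105 normalized counts to 3837 ± 104 (SD, n = 3 each; log2 0.15; limma adjusted p = 0.00868), and its limma call was lost (adjusted p = 0.0694) when both libraries with liver transcripts were left out.

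Slc40a1 (ENSMUSG00000025993, chromosome 1, 45908068 to 45926523, minus strand) encodes ferroportin, the iron exporter, and had the largest log2 change of the 9. Its levels were 1593, 1958 and 1890 normalized counts in the wild-type libraries, and 5173, 4954 and 5803 in those labelled Txn1 KO. Wild-type replicate 1 was the lowest of its group and replicate 3 the highest of the other, and these are the libraries with liver transcripts. The rise was 2.93-fold (log2 1.55 ± 0.067, SE; limma adjusted p = 3.06e-11), with a 95% interval of 2.66-fold to 3.23-fold, and the log2 change was 1.40 without both of those libraries. By size of rise Slc40a1 stood at rank 91 of the 13977 tested genes, Hmox1 at 387 and Slc11a1 at 577. The gene had 1563 to 5178 reads a library, so counting error was small beside the spread between replicates, which came to a coefficient of variation of 10.7% in wild type.

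Slc11a1 (ENSMUSG00000026177, chromosome 1, 74375195 to 74386062, plus strand) encodes NRAMP1, which moves iron and manganese out of the phagosome. Wild-type cells had 15001, 14577 and 14832 normalized counts, whereas the libraries labelled Txn1 KO had 23571, 23542 and 25010. The groups were far apart beside their spread, and the rise was 1.62-fold (log2 0.70 ± 0.033, SE; limma adjusted p = 9.21e-11; log2 0.68 without the libraries with liver transcripts). Its relative Slc11a2 (ENSMUSG00000023030, chromosome 15, 100387898 to 100425072, minus strand) encodes DMT1, which moves iron out of endosomes after transferrin uptake.

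Slc11a2 levels were 3625, 3674 and 3706 normalized counts in wild-type libraries, against 4189, 3932 and 4043 in those labelled Txn1 KO. The groups did not overlap but lay close together, and the rise was 1.11-fold (log2 0.14 ± 0.037, SE; limma adjusted p = 0.0103). The call was lost without the library labelled Txn1 KO 1 (log2 0.12, limma adjusted p = 0.0643) and was kept narrowly (log2 0.14, limma adjusted p = 0.0492) when both libraries with liver transcripts were left out. DMT1 is made from transcripts with and without an iron-responsive 3′ end, and the deposited sum over the gene cannot tell them apart. It overlaps Gm5475 on the other strand over 402 exonic bases.

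The ferritin genes were the most abundant of the 9 by far. Fth1 took 1.72% to 1.84% of the reads in listed genes of a library and Ftl1 1.42% to 1.49%. Fth1 (ENSMUSG00000024661, chromosome 19, 9980598 to 9985098, plus strand) encodes the heavy chain, the ferroxidase of the ferritin shell. The wild-type libraries held 558014, 545632 and 547124 normalized counts, those labelled Txn1 KO 536647, 518539 and 521632. Every library of the second group was below every wild-type library, as for 17.6% of all tested genes. The mean was 0.955 times the wild-type mean (log2 -0.07 ± 0.038, SE), which did not pass limma (adjusted p = 0.249), nor the authors' deposited table (adjusted p = 0.0804). It did pass edgeR (adjusted p = 0.0131) and limma-voom (adjusted p = 0.0231) on the recovered reads, and the log2 change was -0.05 without the libraries with liver transcripts.

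Ftl1 (ENSMUSG00000050708, chromosome 7, 45457944 to 45459884, minus strand) encodes the light chain, which helps the iron core form. Its normalized counts were 436125, 434814 and 428482 in wild-type libraries, against 431619, 428197 and 450944 in those labelled Txn1 KO. The groups overlapped, and the log2 difference of 0.01 (limma adjusted p = 0.870) had a 95% interval of 0.954 to 1.07 times the wild-type level. It was -0.01 without the library labelled Txn1 KO 3, without both libraries with liver transcripts and under upper-quartile scaling. Ferritin genes have processed copies that can share their reads, so their values are uncertain to that extent. The copies Ftl1-ps1, Ftl2, Ftl1-ps2 and Fth-ps2 were listed at 1033, 68.7, 9.70 and 9.50 normalized counts in wild type, small beside their parents. How reads that match several copies were counted is not given, so these values do not show how many are shared. Gm10252, on the other strand of Ftl1 and sharing 355 exonic bases with it, had 993.4.

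Tfrc (ENSMUSG00000022797, chromosome 16, 32608920 to 32632794, plus strand) encodes the transferrin receptor, whose mRNA is stabilised when iron is low. Wild-type libraries had 1015, 1107 and 1101 normalized counts and those labelled Txn1 KO 1078, 1103 and 1136. The groups overlapped. The log2 difference was 0.04 ± 0.054 (SE; limma adjusted p = 0.647), with a 95% interval of 0.952 to 1.11 times the wild-type level, and it was -0.02 without both libraries with liver transcripts. The 4 genes with the hairpins printed above thus had log2 differences of 1.55 (Slc40a1), -0.07 (Fth1), 0.01 (Ftl1) and 0.04 (Tfrc).

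**Figure D2:**
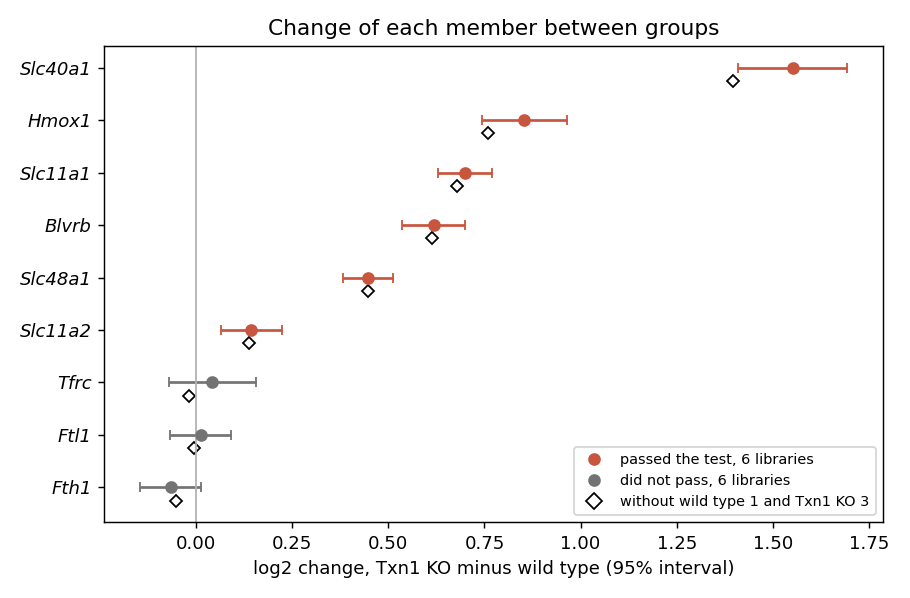
Log2 change of each gene (horizontal axis, libraries labelled Txn1 KO minus wild type) with its 95% interval from limma over 6 libraries (filled circles), and the value without wild-type replicate 1 and the library labelled Txn1 KO 3 (open diamonds). Slc40a1 stands highest at 1.55, and the intervals of Tfrc, Ftl1 and Fth1 span 0. The diamonds, drawn under the circles, lie furthest to the left of them for Slc40a1 (1.40) and Hmox1 (0.76), and to the right for Fth1 alone (-0.05).

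The normalized counts grow with transcript length, so levels were compared between genes per kilobase of annotated exons. In wild type the order was Ftl1 (323239 normalized counts per kb), Fth1 (158621), Hmox1 (6112), Slc48a1 (5138), Slc11a1 (3995), Blvrb (3518), Slc11a2 (577.4), Slc40a1 (201.5) and Tfrc (173.7). Neighbours in this order did not overlap between libraries except Slc40a1 and Tfrc, at 177.0 to 217.5 and 164.1 to 179.0. In the libraries labelled Txn1 KO, Slc40a1 reached 590.0 ± 49.0 per kb (SD, n = 3), which overlapped Slc11a2 at 638.1 ± 20.4, and lay above every value of Tfrc (174.3 to 183.6). Exon lengths join all annotated transcripts of a gene, among them retained introns, so a value per kb can understate the level of the mature mRNA. The lengths were 1340 bases for Ftl1, 3469 for Fth1, 9000 for Slc40a1 and 6185 for Tfrc. Both the order and the overlaps between genes rest on these lengths, and the order of mature mRNAs may differ. Before division Fth1 was above Ftl1 in wild type (means of 550257 and 433140 normalized counts).

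Ratios of related genes within a library do not depend on the scaling of the library. The Fth1 to Ftl1 ratio of normalized counts was 1.28, 1.25 and 1.28 in wild-type libraries, against 1.24, 1.21 and 1.16 in those labelled Txn1 KO. It was lower in all 3, by -0.08 on the log2 scale, and by -0.04 without the libraries with liver transcripts. The Hmox1 to Hmox2 ratio went from 2.98 ± 0.115 to 6.46 ± 0.988 (SD, n = 3 each). For Blvrb to Blvra the ratio was 3.01, 2.79 and 2.72, against 3.82, 3.89 and 4.03. For Slc11a1 to Slc11a2 it went from 4.04 ± 0.0900 to 5.93 ± 0.284. None of the 4 ratios overlapped between the groups, and each gave an exact two-sided permutation p of 0.1 (also 0.1 after Benjamini-Hochberg adjustment over the 4), the smallest that 3 against 3 libraries can give. The pairs were chosen after values were seen, and Hmox1, Blvrb and Slc11a1 had each passed limma alone. The separation therefore describes these pairs and supports nothing further. Of single tested genes 18.5% were higher and 17.6% lower without overlap, and other pairs were not examined.

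**Figure D3:**
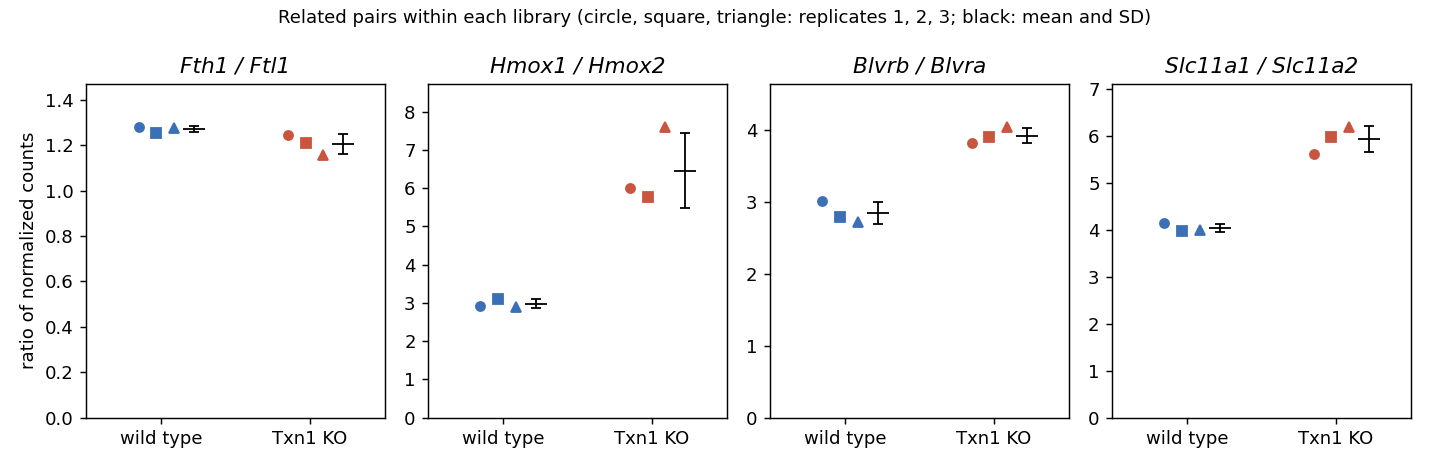
Ratio of normalized counts of related genes within each library (vertical axes from 0), wild type in blue and libraries labelled Txn1 KO in red, with the mean and SD in black. The Hmox1 to Hmox2 ratio rises from 2.98 to 6.46, and the Fth1 to Ftl1 ratio is lower in all 3 libraries labelled Txn1 KO.

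The wider pathway was read from further genes. Of 103 further symbols in 11 groups 86 were listed, and 16 of these rose and 5 fell, which is 18.6% and 5.81% of them against 11.5% and 9.97% of all tested genes. Their median log2 change was 0.02. Of these 21 calls, 10 were kept under all 18 alternatives and 14 without the 2 libraries with liver transcripts.

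Among partners of heme, 2 of 10 synthesis genes rose by limma (20.0%, against 11.5% of all tested genes). The other 8 did not pass it, while edgeR called 1 of the 10 lower and DESeq2 none. Alas1, the first and rate-limiting enzyme outside the erythroid line, stood at 6558, 6384 and 6755 normalized counts in wild-type libraries, against 9678, 9504 and 9254 in those labelled Txn1 KO. The groups did not overlap, and the rise was 1.44-fold (log2 0.53 ± 0.035, SE; limma adjusted p = 5.57e-09). Fech, which inserts iron into the ring in the final step, rose from 1298 ± 84.6 normalized counts to 1505 ± 44.0 (SD, n = 3 each; log2 0.21, limma adjusted p = 0.00748; 0.0539 without the libraries with liver transcripts). In the uptake and transport group 3 of 12 rose (25.0%). Hp, which encodes haptoglobin, the plasma binder of hemoglobin, rose 1.81-fold (log2 0.88, limma adjusted p = 0.00250). It was highest of its group in both libraries with liver transcripts, at 199.7 and 329.7 normalized counts. Without these libraries its log2 change was 0.95 (limma adjusted p = 0.00316). Hebp1, a heme-binding protein, rose by 0.22. Abcg2, a transporter of heme and porphyrins among other substrates, rose by 0.30, a call that was lost under 11 of 18 alternatives. The hemoglobin receptor Cd163 was low, at 32.3 to 71.3 normalized counts in all libraries, and did not pass (log2 -0.51, limma adjusted p = 0.134).

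Among partners of iron, Steap3, the ferrireductase of endosomes, rose by 0.15 (limma adjusted p = 0.00904), and the other 6 listed genes of iron entry did not pass, with Mcoln1 at 0.03 and Trf at 0.00. Ncoa4, the receptor that carries ferritin to the lysosome, differed by 0.00 with a 95% interval of -0.12 to 0.12. In its group Pcbp3, of the family of iron chaperones, was called at 0.41, and lost that call under 12 of 18 alternatives. Both iron regulatory proteins were listed: Aco1 differed by -0.05 (95% interval -0.16 to 0.05) and Ireb2 by 0.07 (-0.02 to 0.16), and with Herc2 (-0.07) and Fbxl5 (0.01) their group of 4 had no call by limma, edgeR or DESeq2 and none at an unadjusted p under 0.05. Of the export group Hfe and Cp were listed, at -0.11 and -0.53. Neither passed by limma, edgeR or DESeq2, and 1 of the 2, Cp, had an unadjusted p under 0.05. The siderophore and lactoferrin group had no call among 4 by any of these tools either (1 at an unadjusted p under 0.05), and its better expressed members Bdh2 and Lcn2 were at 39.9 and 20.4 normalized counts in wild type.

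Of the 20 listed genes of mitochondrial iron and iron-sulfur assembly 1 rose and 2 fell. Cisd2, an iron-sulfur protein of the endoplasmic reticulum and mitochondria, rose from 1815 ± 54.9 normalized counts to 2125 ± 62.3 (SD, n = 3 each; log2 0.23, limma adjusted p = 0.00105). Iba57, a late assembly factor, was called at -0.34, and lost the call under 12 of 18 alternatives. In the cytosolic group of 9, 1 rose and 1 fell (11.1% each). Nubp2, a scaffold subunit, fell by 0.20 (log2, limma adjusted p = 0.00543). Ciapin1, an electron carrier of the same machinery, was called at 0.17, lost under 5 of 18 alternatives.

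Of 10 transcription factors that act on iron and heme genes, 6 rose and 1 fell, where 11.5% of all tested genes rose and 9.97% fell. Spic, the factor of iron-recycling macrophages of the spleen, stood at 29.5, 52.8 and 31.9 normalized counts in wild-type libraries, against 91.6, 88.0 and 110.4 in those labelled Txn1 KO. Its level was low but the groups did not overlap, and the rise was 2.54-fold (log2 1.36 ± 0.23, SE; limma adjusted p = 0.000294). Mafg, a small Maf partner of both NRF2 and BACH1, rose by 0.33 (limma adjusted p = 6.64e-05), and Mitf, a regulator of lysosomal genes, by 0.22. Nfe2l2, which encodes NRF2, rose from 6611 ± 109 normalized counts to 7175 ± 30.7 (SD, n = 3 each; log2 0.12, limma adjusted p = 0.0149; 0.0842 without wild-type replicate 3). Bach1 rose by 0.16 (limma adjusted p = 0.00866; 0.0538 without the library labelled Txn1 KO 2) and Maff, a further small Maf gene, by 0.42, a limma call lost on leaving out wild-type replicate 1 (adjusted p = 0.0512), the library labelled Txn1 KO 1 (0.0755) or 2 (0.0703). Epas1, which encodes the hypoxia factor HIF-2α, was called at -0.47, lost under 5 of 18 alternatives. Keap1 differed by 0.02 and did not pass.

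**Figure D4:**
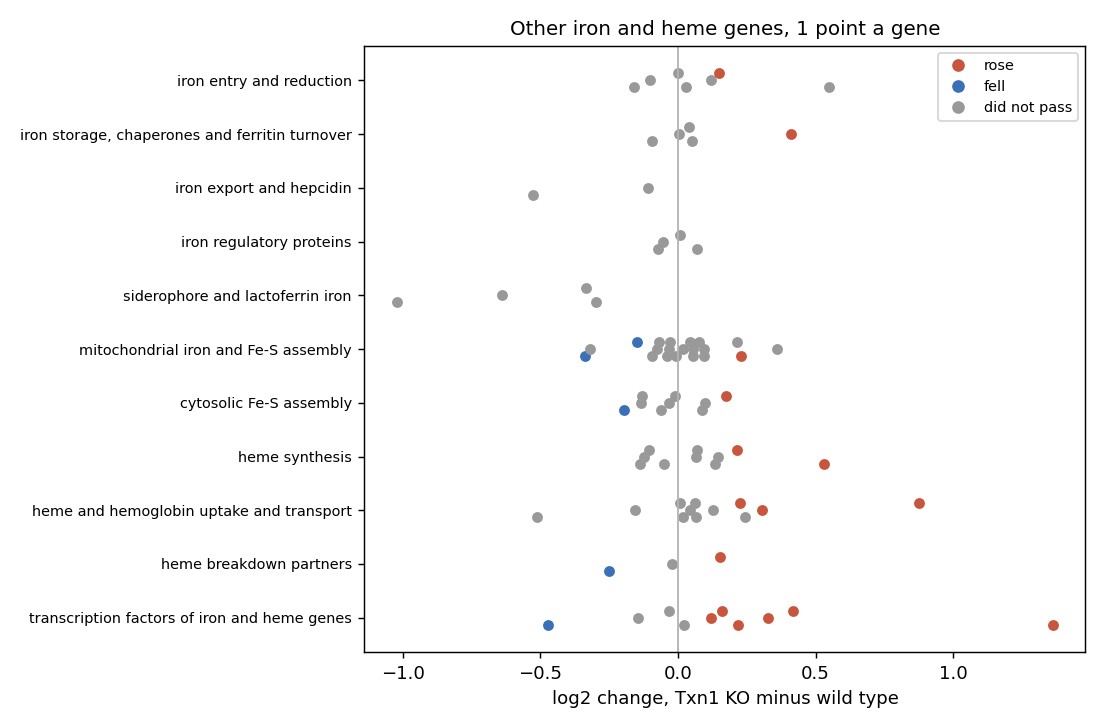
Log2 change (horizontal axis, libraries labelled Txn1 KO minus wild type) of each of the 86 other iron and heme genes, 1 point a gene, in 11 groups, in red where the gene rose, in blue where it fell and in grey where it did not pass. The largest rise is Spic at 1.36 among the transcription factors, and Alas1 stands at 0.53 in heme synthesis.

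The genes whose pattern over the 6 libraries was most like that of Slc40a1 among 10239 with a mean of at least 100 were Prkar2b, a regulatory subunit of protein kinase A, Slc3a2, the heavy chain of amino acid transporters, and C130050O18Rik, each with Pearson's r of 1.00 on the log2 scale. Such values are a description, since 6 libraries in 2 groups give a high r to any gene that separates the groups. For Tfrc they were Gbp8 (0.98), Utp3 (0.98) and Pum2 (0.97), none of which passed the test between groups.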

How the data were processed

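The deposited table holds 6 columns of signal, called normalized counts here. These are the authors' reads per gene over a size factor for each library, since in every library 100% of the values came out as whole reads within a tolerance of 0.01. The authors' log2 fold changes, p-values and adjusted p-values stand beside them. Tools named per the submitters' processing notes were STAR 2.5.2b, Trimmomatic 0.36, bcl2fastq 2.20 and DESeq2, with GRCm38 (mm10). For the read counter, strand setting and annotation, nothing is given in the sources used here. Columns named BMDM were read as wild type, there being no second unnamed group. Unused per-sample columns numbered 0.

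Groups were compared with limma 3.58.1 (R 4.3.3, trended prior, two-sided) on log2(normalized count + 1). Genes under a mean of 10 were dropped (28), and an adjusted p under 0.05 was called. Fold changes are ratios of mean normalized counts. edgeR 4.0.16, DESeq2 1.42.0 and limma-voom ran on the recovered reads. The limma fit was tested on simulated reads with the same dispersion for every gene, a simpler case than these data. That run does not bear on the calls made here. A floor of 3 reads equals 2.33 to 4.04 normalized counts and covers counting error only. Positions and transcripts are from GENCODE M21. The members, the lists and the rule for named genes were chosen with earlier results of these data known. The rule takes all 9 genes, each called gene of the wider groups (the 2 most abundant where none was called), and the 3 nearest patterns of Slc40a1 and Tfrc. The hairpin and promoter searches, the ratios of related genes and the naming of Keap1, Cd163, Trf, Mcoln1, Ncoa4, Ireb2 and Fbxl5 came after values were seen. 1 called gene of the wider groups is not reported here by name.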

Additional observations from a re-analysis of the deposited data

How the results depend on the processing

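Of 162 values of the 9 genes under 18 alternatives, 155 kept their direction and side of the threshold. The exceptions were Slc11a2, no longer called without Txn1 KO replicate 1; Fth1, called lower by edgeR and limma-voom, which made 1 of the 9 lower under each of these; and 4 changes of sign, all of values that did not pass. The log2 change of Ftl1 was -0.0108 without Txn1 KO replicate 3, -0.0106 under upper-quartile scaling and -0.0058 without both libraries with liver transcripts, and it ran from -0.0108 to 0.0266 with 1 library left out. That of Tfrc was -0.0178 without both libraries with liver transcripts. The cause was not tested. The count of 6 that rose was 5 to 6 when 1 library was left out. In the wider list the count that fell was 5 and became 3 with the replicate block, DESeq2 or the authors' deposited statistics, and 2 to 5 with 1 library left out, the lowest without Txn1 KO replicate 1, and 3 without wild-type replicate 2 or 3. Over all genes 3001 were called, and 2088 to 2820 with 1 library left out. Same-numbered libraries had correlations of -0.27, 0.14 and -0.33 between their deviations from the group means, and most libraries correlated best with a library of another number. The highest, 0.43, joined wild-type replicate 1 and Txn1 KO replicate 3, the libraries with liver transcripts. Deviations of 3 libraries from their own mean depend on one another, so these values cannot decide whether the replicate number pairs the samples. With the number as a replicate block 2675 genes were called, and the same count of the 9 rose (6). Upper-quartile scaling moved the median of all genes by -0.02 (log2) and the share of calls that were higher from 53.5% to 44.0%, and the wider list then had 14 higher and 7 lower in place of 16 and 5. The effect of depth on low genes was not tested.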

Other observations

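Among RefSeq promoters (GRCm38.p6, 250 bases before to 50 after a start site), 5 of the 9 genes had an entry: Fth1, Ftl1, Tfrc, Slc11a1 and Blvrb. The core letters of the antioxidant response element, TGACNNNGC on either strand, were in no promoter entry of these 5 genes, and in at least 1 entry of 17.3% of 10087 tested genes that have one. No match says only that these letters are not in this window.

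Of the 32 other tested genes within 1 Mb of Slc11a1, 5 rose and 6 fell, which is 34.4% called against 21.5% of all tested genes. Around Slc40a1 2 of 6 fell (33.3% called). Around Hmox1 1 of 6 rose (16.7%), around Slc48a1 6 of 21 rose and 2 fell (38.1%), and around Slc11a2 9 of 39 rose and 2 fell (28.2%). Around Blvrb 1 of 47 rose and 6 fell (14.9%). Of the genes that did not pass, Ftl1 had 6 of 75 higher and 16 lower (29.3%), Fth1 2 of 29 and 5 (24.1%), and Tfrc 4 of 28 and 1 (17.9%). Whether the position of a gene has a part in its change was not tested.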
